A study of Saccharomyces cerevisiae with 4 samples.

Results

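The genes of phosphate signalling and polyphosphate synthesis were examined in *Saccharomyces cerevisiae* cells lacking *SIS2*. The 10 genes were chosen by their known roles, with earlier results of these data already at hand. Each was found by its systematic identifier among the 6692 genes of the count table. They are the transcription factors *PHO4* (YFR034C) and *PHO2* (YDL106C), the cyclin *PHO80* (YOL001W), its kinase *PHO85* (YPL031C), the kinase inhibitor *PHO81* (YGR233C) and *SPL2* (YHR136C). The rest are 4 subunits of the vacuolar transporter chaperone, *VTC1* (YER072W), *VTC2* (YFL004W), *VTC3* (YPL019C) and *VTC4* (YJL012C). Polyadenylated RNA was sequenced from 2 cultures of the haploid laboratory strain BY4741, here the wild-type, and from 2 cultures of its *sis2Δ* derivative, in which the kanMX cassette takes the place of *SIS2*. *SIS2* encodes an inhibitor of the Ppz phosphatases that is also a subunit of an enzyme of coenzyme A synthesis. Both strains carry the marker deletions of BY4741, those of *URA3*, *MET17* and *LEU2* among them, and both were grown to mid-log phase in synthetic complete medium with 2% glucose. The study used the comparison to look for transcripts that change along with the long replicative lifespan of *sis2Δ* cells. The labels do not say whether the *sis2Δ* cultures came from more than 1 clone.

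When phosphate is plentiful, the Pho80-Pho85 kinase phosphorylates Pho4 and so keeps it out of the nucleus. When phosphate runs low, inositol pyrophosphates and the inhibitor Pho81 set the kinase's activity, unphosphorylated Pho4 enters the nucleus, and together with Pho2 it switches on the genes of the PHO regulon. The regulon includes secreted acid phosphatases, phosphate transporters, *PHO81* and *SPL2* themselves, and the VTC subunits, which polymerise phosphate into polyphosphate and move it into the vacuole. Synthetic complete medium is usually rich in phosphate, a condition in which the regulon is known to be largely off. The phosphate level of these cultures is not given in the sources used here, and the levels of the genes themselves are given below.

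The libraries held between 19001619 and 28069619 gene counts, and 5959 genes with 0.5 CPM or more in 2 or more libraries were tested, where CPM is a gene's count scaled to a fixed library total, the same for every library. Counts of *SIS2* were 3991 (A) and 2208 (B) in the wild-type against 6 (A) and 9 (B) in *sis2Δ*, while *URA3* and *MET17* had 0 counts in every library and *LEU2* had 1 count in *sis2Δ* B alone. The 2 libraries of a strain differed by more than counting noise, as a chi-square of 20.4 times its degrees of freedom in the wild-type and 60.3 times in *sis2Δ* shows. Levels are given below in CPM scaled by the TMM method. As a check of mating type, the 5 genes specific to *MATa* cells summed to between 1597 and 1671 CPM in the wild-type and between 2151 and 2200 CPM in *sis2Δ*. The 4 genes specific to *MATα* cells summed to 44.5 and 47.5 CPM in the wild-type and to 80.1 and 80.4 CPM in *sis2Δ*, and none of them was at 0 in every library. By the test described below, 2 of the 5 *MATa* genes were called higher in *sis2Δ*. The same held for 2 of the 3 *MATα* genes that were tested, against 2.72% of all tested genes. The part of these markers in the results below was not tested.

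None of the 10 genes passed the test for a difference between the strains. With edgeR's quasi-likelihood F-test and p-values adjusted by Benjamini-Hochberg over all tested genes, 0 of the 10 had an adjusted p under 0.05, against 6.07% of all tested genes (362 genes, 162 higher and 200 lower in *sis2Δ*). With scaling by library size alone, 188 genes were higher and 128 lower, and again 0 of the 10 were called. 1 of the 10, *PHO81*, had an unadjusted p under 0.05, as did 21% of all tested genes, and limma-voom and DESeq2 also called 0. With the replicate letter as a block, *PHO81* was called, among 13.2% of all tested genes. The log2 fold changes of the 10 genes lay between 0.0013 and 0.36, with a median of 0.10 against -0.0050 over all tested genes. All 10 values were positive, where 49% of tested genes had a positive value, but those of *PHO4* and *VTC3* turned slightly negative under limma-voom.

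The precision of the measurement limits how large a change could have gone unseen. The lowest count of any of the 10 genes in any library was 455, and 95% intervals of the fold change, before adjustment, stayed within 1.35-fold in either direction for 9 genes and reached 1.52-fold for *PHO81*. Among the 4365 genes with a wild-type level in the range of these 10 (27.3 to 982 CPM), 5.84% were called, and the smallest log2 change called was 0.37 in size. The data therefore bound the changes of these transcripts but do not show that they were equal in the 2 strains. Permuting 2 against 2 libraries gives a two-sided exact p of 0.333 at the least, so each call depends on the spread that edgeR borrows from other genes. The p-values measure only the spread between these cultures.

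**Figure D1:**
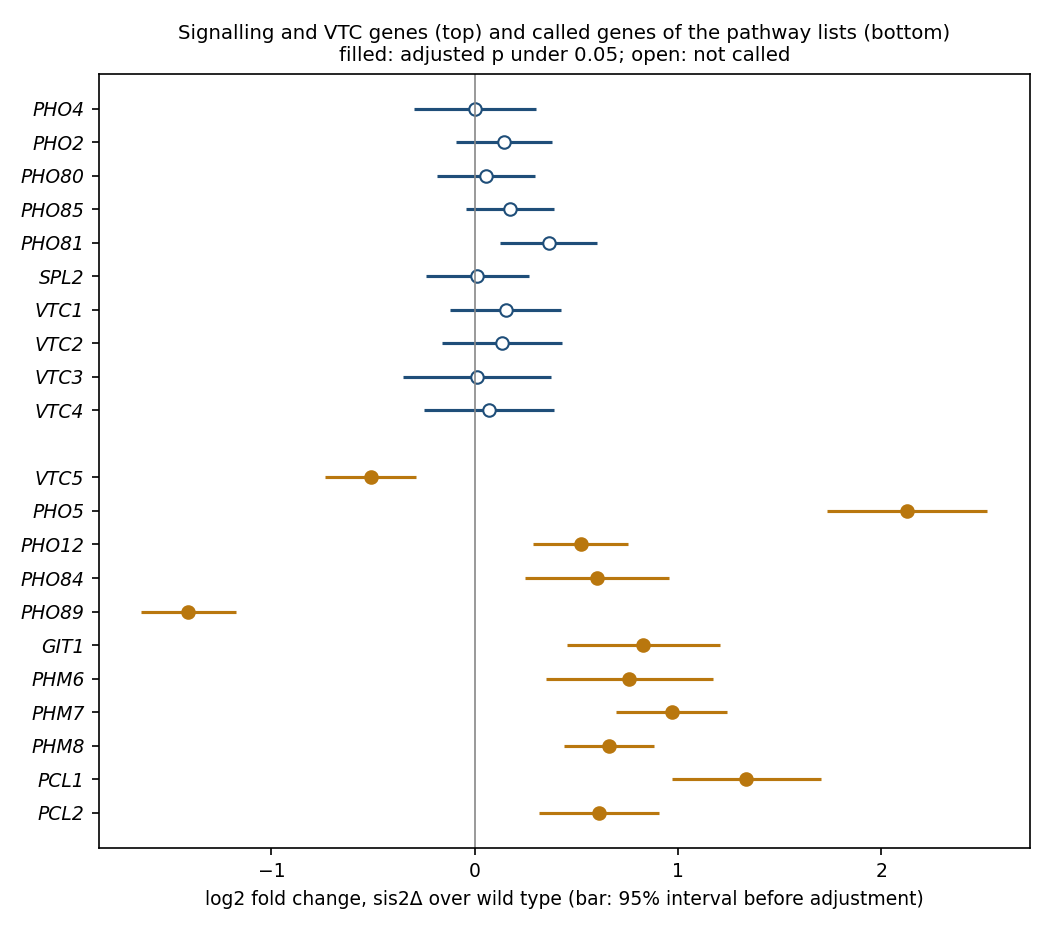
Log2 fold change of *sis2Δ* over the wild-type for the 10 signalling and VTC genes (blue, top) and for the called genes of the fixed pathway lists (orange, bottom). Bars are 95% intervals before adjustment, filled points have an adjusted p under 0.05, and all blue points are open and lie between 0.0013 and 0.36, while the orange points, shown because they were called, run from -1.41 (*PHO89*) to 2.13 (*PHO5*).

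*PHO4*, on the minus strand of chromosome VI from 225020 to 225958, encodes the helix-loop-helix activator of the regulon. Its level was 30.6 and 24.1 CPM in wild-type A and B and 28.2 and 26.7 CPM in *sis2Δ* A and B. Both *sis2Δ* libraries lay between the wild-type ones, and edgeR's test gave a log2 fold change of 0.0013 with a 95% interval from -0.30 to 0.30 (adjusted p = 0.998). *PHO2*, on chromosome IV from 270222 to 271901, encodes the homeodomain protein that binds many promoters together with Pho4 and also acts with other activators. It had 127 and 131 CPM in the wild-type and 152 and 132 CPM in *sis2Δ*, so that only replicate A of *sis2Δ* stood clear of the wild-type libraries, with an estimated log2 fold of 0.14 ± 0.11 (standard error) and an adjusted p of 0.478.

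The kinase *PHO85* (chromosome XVI, 492018 to 493037, the single intron-containing gene of the group) works with several cyclins, of which Pho80 directs it to Pho4. *PHO85* had 105 and 107 CPM in the wild-type and 119 and 119.7 CPM in *sis2Δ*. Its *sis2Δ* libraries were nearly equal and both lay above the wild-type, yet the difference, a log2 fold change of 0.17 (standard error 0.10, 95% interval -0.05 to 0.39), had an adjusted p of 0.345 in edgeR's test. *PHO80* (chromosome XV, 325249 to 326130) had 44.3 and 47.4 CPM in the wild-type and 49.1 and 46.2 CPM in *sis2Δ*. Its libraries interleaved, and the log2 fold was 0.06 ± 0.11 (standard error) with an adjusted p of 0.816.

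*PHO81* came closest to the threshold. It lies on the minus strand of chromosome VII from 954674 to 958210 and encodes the ankyrin-repeat inhibitor of Pho80-Pho85, which is itself a target of Pho4. Its level was 143 and 123 CPM in wild-type A and B and 174 and 167 CPM in *sis2Δ* A and B, or 133 ± 14.3 CPM against 171 ± 5.21 CPM (SD, n = 2 each). Each *sis2Δ* library exceeded each wild-type library, and edgeR's test gave a log2 fold change of 0.36 with a 95% interval from 0.12 to 0.60 before adjustment (adjusted p = 0.0775). The call depended on the fit and on single libraries. With the replicate letter as a block, edgeR gave a log2 fold change of 0.37 (adjusted p = 0.0148). Without *sis2Δ* replicate B the log2 fold change was 0.39 and passed the threshold (adjusted p = 0.0411), and without wild-type replicate B it was 0.28 (adjusted p = 0.57).

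*SPL2* (chromosome VIII, 374654 to 375100) encodes a small protein related to Pho81 that, in phosphate-starved cells, represses the low-affinity phosphate transporters. It had 65.4 and 67.9 CPM in the wild-type and 61.1 and 73.2 CPM in *sis2Δ*. The *sis2Δ* libraries lay on either side of the wild-type, and edgeR's test put the log2 fold at 0.01 with a 95% interval from -0.24 to 0.26 (adjusted p = 0.967). *SPL2* is known to respond strongly to phosphate starvation.

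**Figure D2:**
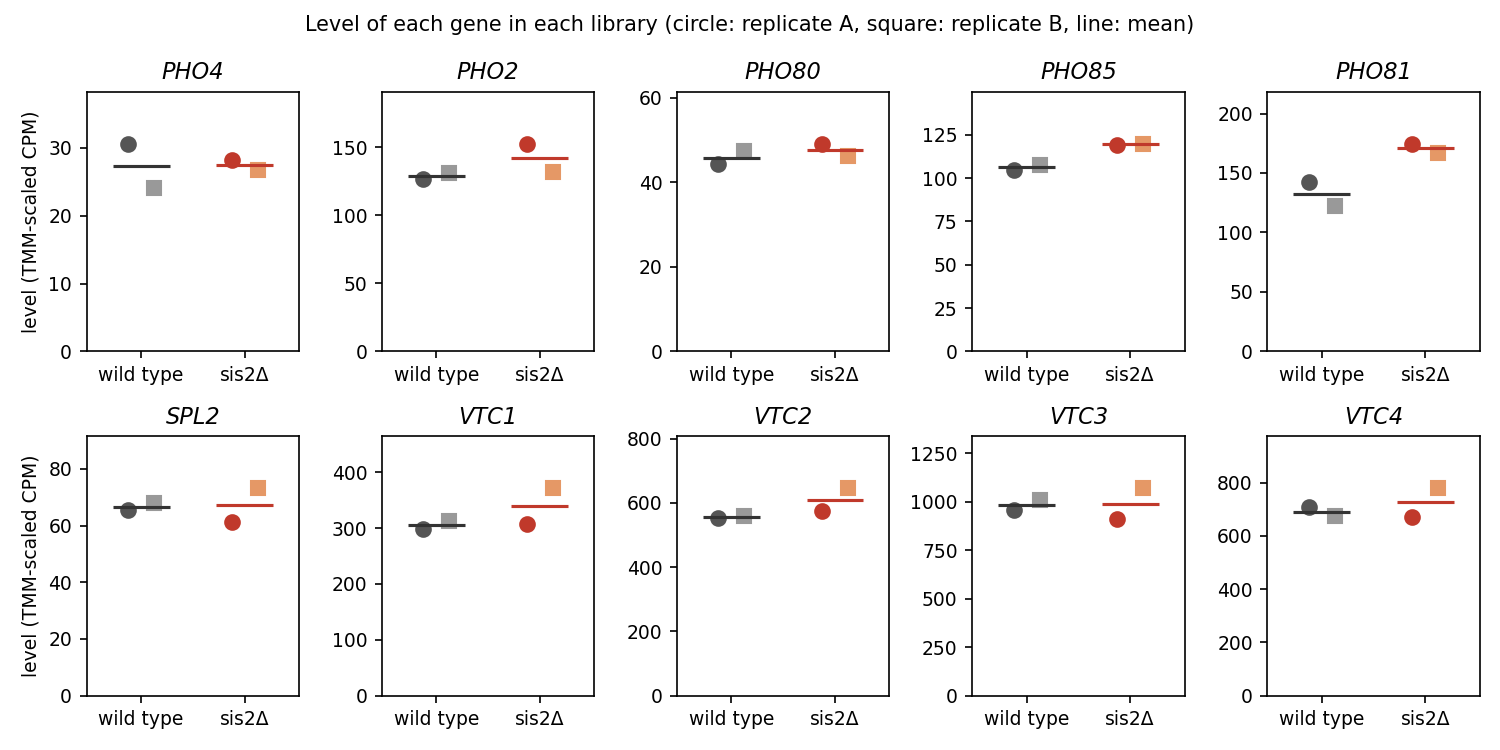
Level in TMM-scaled CPM of each of the 10 genes in the 2 wild-type libraries (grey) and the 2 *sis2Δ* libraries (red and orange), on axes that start at 0, with lines at the strain means. The strains do not overlap for *PHO2*, *PHO85*, *PHO81* and *VTC2* and overlap for the other 6 genes, and *PHO81* shows the largest relative difference of means, 133 against 171 CPM.

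The VTC complex consists of Vtc1, a small membrane subunit, Vtc4, the catalytic polymerase, and either Vtc2 or Vtc3, which sets where the complex resides. All 4 genes were well expressed in this medium, and for none did edgeR's test separate the strains. *VTC4* (chromosome X, 411234 to 413399) had 708 and 674 CPM in the wild-type and 672 and 779 CPM in *sis2Δ*, and its log2 fold was 0.07 ± 0.15 (standard error) with an adjusted p of 0.824. *VTC3* (chromosome XVI, 514511 to 517018) had 956 and 1008 CPM in the wild-type and 911 and 1069.7 CPM in *sis2Δ*, and its log2 fold was 0.01 ± 0.17 with an adjusted p of 0.979. In both genes the *sis2Δ* libraries bracketed the wild-type ones.

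*VTC1* (chromosome V, 302806 to 303195) had 299 and 312 CPM in the wild-type and 307 and 372 CPM in *sis2Δ*, and edgeR's test gave a log2 fold of 0.15 ± 0.13 (standard error) with an adjusted p of 0.518. *VTC2* (chromosome VI, 131810 to 134296) had 553 and 559 CPM in the wild-type and 575 and 646 CPM in *sis2Δ*, and its log2 fold was 0.13 ± 0.14 with an adjusted p of 0.604. Of *VTC1* to *VTC4*, *VTC2* alone had libraries, in CPM, that did not overlap between the strains. Over the whole group the CPM values of the strains did not overlap for 4 of the 10 genes, each time with *sis2Δ* higher, while 53.1% of all tested genes did not overlap, 24.5% with *sis2Δ* higher and 28.6% with it lower. *VTC2* and *VTC3* are 67.9% identical over 2389 aligned coding bases, with no identical stretch longer than 14 bases, and none of the 10 genes shares a stretch as long as a read (100 bases) with another place in the genome.

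Between the *sis2Δ* libraries, in TMM-scaled CPM, the VTC genes and *SPL2* ran one way and the signalling genes mostly the other. The size of these steps depends on the scaling, and values on another scale are given below. The 4 VTC genes and *SPL2* were 1.12 to 1.21 times as high in *sis2Δ* B as in *sis2Δ* A, and *PHO5* and *PHO84*, the classic targets of Pho4, were 1.23 and 1.28 times as high. *PHO4*, *PHO2*, *PHO80* and *PHO81* had ratios between 0.866 and 0.958, and *PHO85* was nearly equal in both. Over all tested genes this ratio had a median of 1.01, with the middle 80% of genes between 0.811 and 1.24. Of the genes just named, *PHO84* alone lay outside that range. *PHO81*, itself a target of Pho4, ran with the signalling genes, and the PHM genes described below were mixed. In *sis2Δ* A and B, *PHM6* had 25.8 and 17.1 CPM and *PHM8* 150 and 144 CPM, while *PHM7* had 50.2 and 56.6 CPM. In the wild-type, *PHO4* was 1.27 times and *PHO81* 1.17 times as high in library A as in B. The other 8 of the 10 genes had ratios between 0.933 and 1.05. With *sis2Δ* A left out, the log2 fold changes of *SPL2* and the VTC genes were between 0.14 and 0.29, and with *sis2Δ* B left out they were between -0.12 and 0.05, with none called either way.

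To compare levels between genes, counts were divided by coding length and scaled to the same total in every library over all annotated genes (TPM). Because the gene models hold no untranslated regions, the values of the shortest genes, *VTC1* (390 bases) and *SPL2* (447 bases), may be too high. The VTC genes came first, with wild-type means of 734 ± 17.9 TPM for *VTC1*, 367 ± 11.1 for *VTC3*, 299 ± 12.5 for *VTC4* and 209.5 ± 0.150 for *VTC2* (SD, n = 2 each). *VTC1* stood above 95.7% of annotated genes and 2.00 times above *VTC3*. *SPL2* followed at 140 ± 2.61 TPM, *PHO85* at 108 ± 0.977 and *PHO2* at 71.8 ± 1.04. Lowest were *PHO80* at 48.7 ± 2.00 TPM, the kinase inhibitor *PHO81* at 35.2 ± 4.06 and *PHO4* at 27.3 ± 4.78, the last above only 31% of annotated genes. The order was the same by the *sis2Δ* means. Neighbours in this order did not overlap over the 4 libraries, except *PHO80* and *PHO81*, which ran from 47.3 to 58.0 TPM and from 32.3 to 51.4 TPM over the 4 libraries. TPM uses no TMM factors, and on it the libraries of the strains did not overlap for 7 of the 10 genes, with *sis2Δ* higher each time, against 26.1% of tested genes with *sis2Δ* higher and 21.4% with it lower. *SPL2*, *VTC1*, *VTC3* and *VTC4* thus overlapped in CPM but not in TPM, while *PHO2* did the reverse. The median log2 ratio of TPM between the strains was 0.06 over all tested genes. The step between the *sis2Δ* libraries was smaller in TPM for the VTC genes and *SPL2*. In *sis2Δ* A and B, *VTC1* had 820 and 874 TPM, *VTC3* 378 and 391, *VTC4* 323 and 330 and *SPL2* 142.5 and 150. *VTC2* went the other way, with 241 and 238 TPM. *PHO4*, *PHO2*, *PHO80*, *PHO81* and *PHO85* were all lower in B, the last with 135 and 120 TPM.

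Ratios between partner genes within a library do not depend on how libraries are scaled, and 6 of them were fixed as comparisons. The ratio of *PHO81* to *PHO80* counts, inhibitor to cyclin, was 3.23 and 2.58 in wild-type A and B and 3.56 and 3.62 in *sis2Δ* A and B, a log2 difference of 0.31. The ratio of *VTC2* to *VTC3*, the alternative subunits, was 0.579 and 0.555 in the wild-type and 0.631 and 0.604 in *sis2Δ*, a log2 difference of 0.12. The ratio of *PHO80* to *PHO85* was 0.422 and 0.442 in the wild-type and 0.412 and 0.386 in *sis2Δ*, a log2 difference of -0.12. These 3 ratios did not overlap between the strains, but their exact permutation p was 0.333, the smallest this design allows, so none can be called. The ratios of *VTC1* to *VTC4*, *VTC4* to *VTC3* and *PHO4* to *PHO2* overlapped, with differences between -0.12 and 0.08 and exact permutation p-values of 0.667, 1 and 1. With 1 library left out, the difference ranged from 0.15 (without wild-type B) to 0.47 (without wild-type A) for *PHO81* to *PHO80*, and it changed sign for *PHO4* to *PHO2* (0.07 without wild-type A) and for *VTC4* to *VTC3* (-0.01444 without wild-type B).

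**Figure D3:**
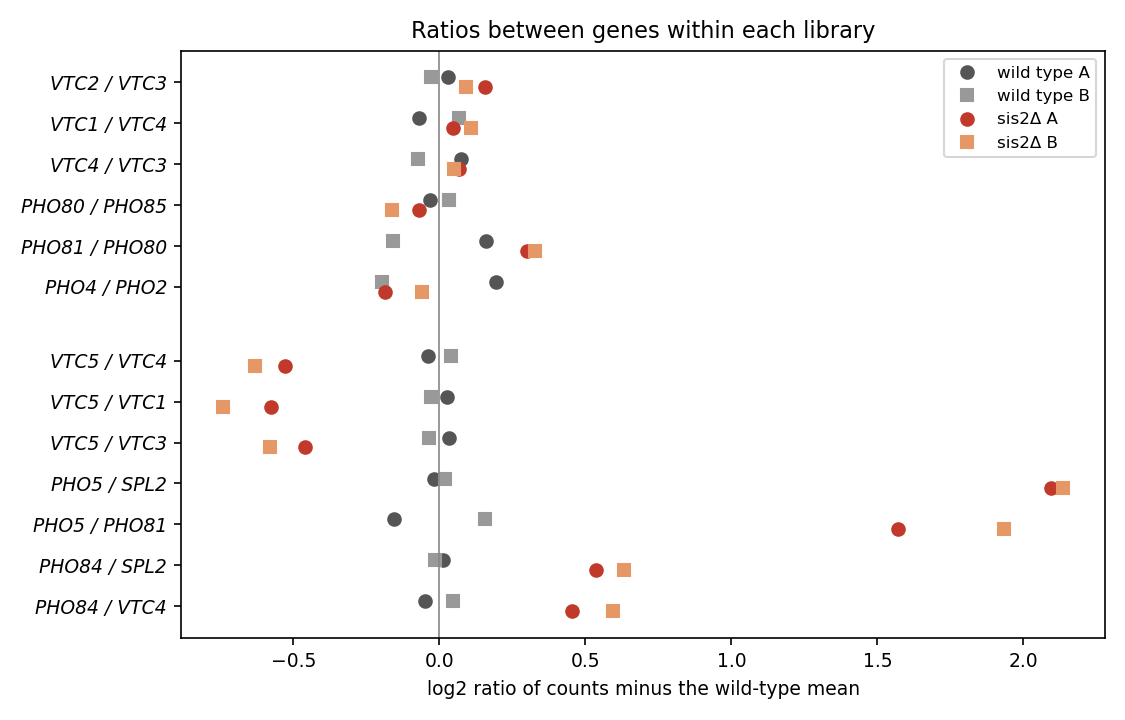
Log2 ratio of counts between pairs of genes in each library, minus the wild-type mean of that ratio. The upper 6 pairs were fixed as comparisons and lie near 0, the widest difference being 0.31, and in the lower 7, chosen after the fold changes were seen, the *sis2Δ* libraries lie to the left for *VTC5* and to the right for *PHO5* and *PHO84*.

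The promoters were searched for the core motif that Pho4 binds, CACGTG, a palindrome that Cbf1 also binds. In the window from 250 bases before to 50 after the start codon it was found in 3 of the 10 genes, *SPL2*, *VTC1* and *VTC4*, and in 2.92% of promoters. In the 500 bases before the start codon, a window chosen after seeing the data, it was found in 6 of the 10, *PHO81*, *SPL2* and the 4 VTC genes, and in 6.23% of 6000 annotated promoters. *SPL2* has 4 copies within 500 bases, the only promoter of the 6000 with as many, and *VTC3* and *VTC4* have 2 each, where 0.683% of promoters have at least 2. A second core, CACGTT, searched on both strands as CACGTT or AACGTG, occurs in 4 of the 10 within 500 bases (*PHO80*, *PHO85*, *PHO81* and *VTC3*) and in 16% of promoters. *PHO4* and *PHO2* have neither. A match describes these letters only and was not tested as a binding site. The CACGTG copies of the 6 genes, with 10 flanking bases on each side and the motif in capitals, are shown because they are what these genes share with *PHO5*, the gene of the pathway lists that rose most. The second *PHO5* line shows its CACGTT copy. The sequences are read on the strand of the gene from the R64 (sacCer3) RefSeq genome.
SPL2, 361 bases before the start codon, chrVIII:375446-375471, minus strand: tatttttgctCACGTGaccgacaagg
SPL2, 147 bases, chrVIII:375232-375257, minus strand: atgatgtacgCACGTGggcgaaagtt
SPL2, 90 bases, chrVIII:375175-375200, minus strand: tctcttttccCACGTGctccgctctc
SPL2, 31 bases, chrVIII:375116-375141, minus strand: tcactgcagcCACGTGcctagatcta
PHO81, 344 bases, chrVII:958539-958564, minus strand: ggtgttatggCACGTGcgaataaggg
VTC1, 157 bases, chrV:302639-302664, plus strand: tagatattagCACGTGtctcggagag
VTC2, 311 bases, chrVI:131489-131514, plus strand: aaaaaaaaccCACGTGctgcttggaa
VTC3, 345 bases, chrXVI:517348-517373, minus strand: tgcgagggccCACGTGgcttaataca
VTC3, 311 bases, chrXVI:517314-517339, minus strand: cagtcgcaagCACGTGcatgcgattt
VTC4, 125 bases, chrX:413509-413534, minus strand: tattcatccgCACGTGgctgcacacg
VTC4, 113 bases, chrX:413497-413522, minus strand: cgtggctgcaCACGTGaatgaaaaag
PHO5, 253 bases, chrII:431189-431214, minus strand: ttggcactcaCACGTGggactagcac
PHO5, 362 bases, chrII:431298-431323, minus strand: attaaattagCACGTTttcgcataga

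**Figure D4:**
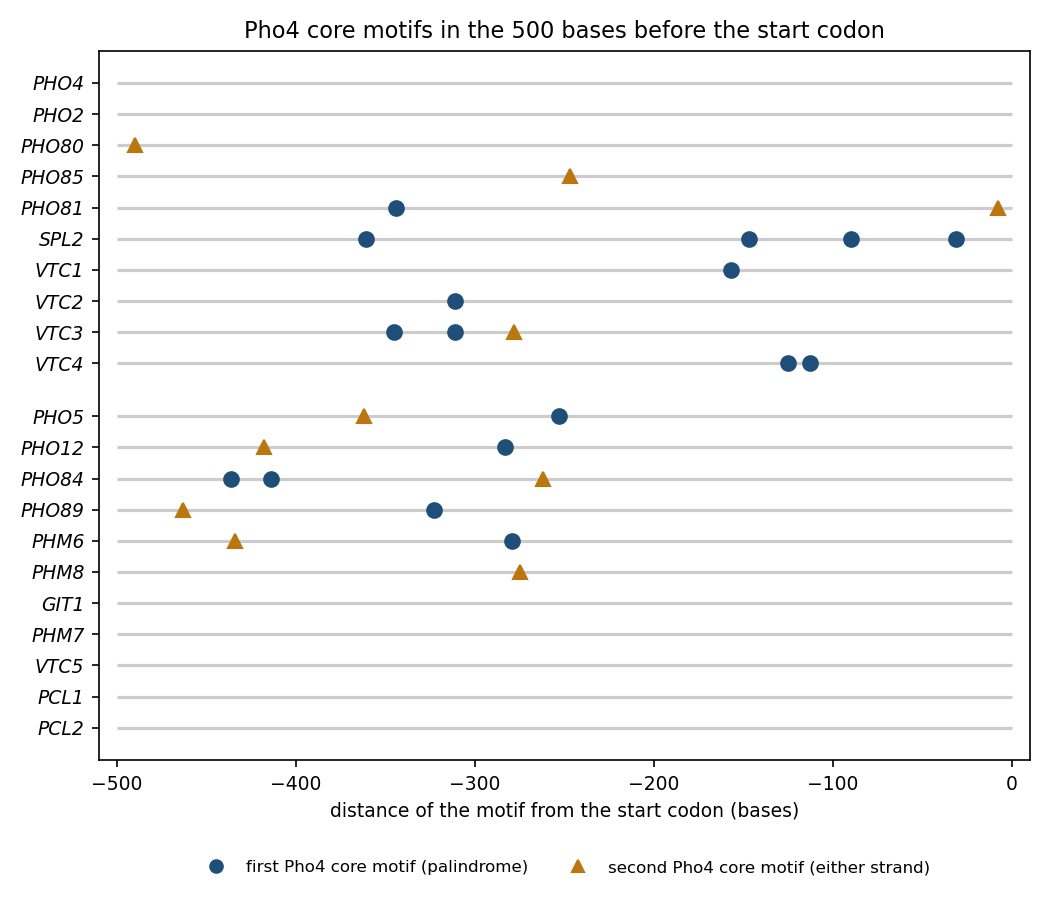
Position of the Pho4 core motifs in the 500 bases before the start codon, in bases from it, for the 10 genes (top) and the 11 called genes of the pathway lists (bottom), with circles for CACGTG and triangles for CACGTT on either strand. *SPL2* has 4 circles, and *VTC1* to *VTC4* and *PHO81* have 1 or 2. The called genes *PHO5*, *PHO12*, *PHO84*, *PHO89* and *PHM6* each have at least 1 circle. *PHM8* has a triangle alone, and the other 5 called genes have neither.

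The 6 genes with CACGTG had log2 fold changes from 0.01 to 0.36, and 0 of them were called by edgeR's test, while 4 of the 15 other pathway genes with CACGTG were called higher and 1 lower. Of the 29 pathway genes without CACGTG in that window, 5 were called higher and 1 lower. Of all tested genes, 2.72% were called higher and 3.36% lower, but the pathway lists were chosen with earlier results of these data known. *PHO5*, which encodes the secreted acid phosphatase, has 1 copy of each core and went from 370 and 394 CPM in the wild-type to 1496 and 1842 CPM in *sis2Δ*. Its ratio to *SPL2* counts was 5.65 and 5.80 in the wild-type and 24.5 and 25.2 in *sis2Δ*, 4.33 times higher, and its ratio to *PHO81* was 3.37 times higher. The ratio of *PHO84*, the high-affinity phosphate transporter, to *SPL2* was 9.49 and 9.31 in the wild-type and 13.7 and 14.6 in *sis2Δ*, a log2 difference of 0.58. The libraries of the strains did not overlap in any of these 3 ratios, with an exact permutation p of 0.333 each, the smallest possible. The pairs were chosen after the fold changes were seen.

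The other genes of the pathway, 44 from fixed lists, held 9 called higher and 2 called lower in *sis2Δ*. Of all tested genes, 2.72% were called higher and 3.36% lower. The lists were chosen with earlier results of these data known, and the study names *PHO5*, *PCL1* and *PCL2* as differentially expressed. The comparison with all tested genes is therefore not independent of these data. Of 12 phosphatase and transporter genes, 4 were higher and 1 was lower by edgeR's test. Those called higher were *PHO5* (log2 fold change 2.13, adjusted p = 1.87e-05), *GIT1*, a transporter of glycerophosphoinositol (0.83, adjusted p = 0.015), *PHO84* (0.60, adjusted p = 0.0496) and, read alone, *PHO12*, an acid phosphatase (0.52, adjusted p = 0.014). *PHO12* and *PHO11* are 99.7% identical and share 75.2% of their 100-base windows with other places in the genome, which leaves the division of reads between them uncertain. *PHO11* went the other way, from 66.9 to 52.5 CPM (log2 fold change -0.35, adjusted p = 0.0985), and the pair summed was 197.5 and 213 CPM in the wild-type and 239 and 264 CPM in *sis2Δ*, a log2 ratio of means of 0.29 that was not tested. *PHO89*, the sodium-phosphate symporter, fell by 1.41 on the log2 scale, from 203 ± 8.80 to 76.7 ± 4.95 CPM (SD, n = 2 each, adjusted p = 7.36e-06), and its promoter also holds CACGTG.

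Of 5 further genes of phosphate metabolism, *PHM7* (log2 fold change 0.97), *PHM6* (0.76) and *PHM8* (0.66), whose expression is known to respond to phosphate supply, rose, with adjusted p-values from edgeR's test of 0.00066, 0.0343 and 0.00207. The remaining change in this list was that of *VTC5*, which encodes an accessory subunit that stimulates the VTC polymerase. *VTC5* had 169 and 171 CPM in the wild-type and 115 and 124 CPM in *sis2Δ*, and fell by 0.51 on the log2 scale (standard error 0.10, adjusted p = 0.0124). Its ratio to *VTC4* counts was 0.240 and 0.253 in the wild-type and 0.171 and 0.159 in *sis2Δ*, a factor of 0.669, and against *VTC1* and *VTC3* the factor was 0.634 and 0.697. These ratios, also chosen after the values were seen, did not overlap between the strains (exact permutation p = 0.333, the smallest possible). Of the 5 genes that encode VTC subunits, 1 was therefore called, against 6.07% of all tested genes. *VTC5* came from another list than the other 4.

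Over all tested genes, edgeR's test called 6.07%, and 21% had an unadjusted p under 0.05. No gene of the inositol phosphate and pyrophosphate enzymes was called (0 of 7, with 2 at an unadjusted p under 0.05), nor of the polyphosphatases (0 of 3, with 1). The same held for the proteins that move Pho4, share its binding sites or otherwise affect the regulon (0 of 8, with 0). In these lists limma-voom and DESeq2 called 0 as well. These counts turned on *sis2Δ* replicate B, without which 1 of 7, 2 of 3 and 4 of 8 were called, as were 17.6% of all tested genes. With the replicate letter as a block they were 2, 1 and 0, where 13.2% of all tested genes were called. Among the cyclins of Pho85 other than Pho80, 2 of 9 were called higher, against 2.72% of all tested genes. They were the G1 cyclins *PCL1* (log2 fold change 1.33, adjusted p = 0.000532 from edgeR's test) and *PCL2* (0.61, adjusted p = 0.0208). The study had already named both cyclins as differentially expressed, so their share against all tested genes is not independent of these data.

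Several of these calls rested on single libraries. Without wild-type replicate A, *PHO84* had an adjusted p of 0.341 and *PHO12* of 0.101. Without wild-type replicate B, the values were 0.330 for *PHO84*, 0.0862 for *GIT1*, 0.0656 for *VTC5* and 0.105 for *PCL2*. Without *sis2Δ* replicate A, they were 0.2001 for *PHM6* and 0.0558 for *PCL2*. *PHO84* was called in 4 and *PHM6* in 6 of 8 alternatives that kept all libraries, and *PHO5*, *PHO89*, *PHM7*, *PHM8* and *PCL1* were called in all 8 and with each library left out.

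Of the 20 genes that lie next to the 10, 18 were tested and 2 were called, both higher in *sis2Δ*, against 2.72% of all tested genes called higher. They were singled out after their values were seen. *CTF19*, a kinetochore gene, starts 632 bases from *VTC3* on the opposite strand, so that both genes read away from the stretch that holds the *VTC3* motifs, and its log2 fold was 0.67 ± 0.17 (standard error, adjusted p = 0.0421 from edgeR's test) where that of *VTC3* was 0.01. *QCR6*, which encodes a subunit of the respiratory chain and begins 250 bases downstream of *PHO4* on the same strand, had a log2 fold of 0.70 ± 0.16 (adjusted p = 0.0206). None of the 10 genes overlaps another annotated gene on either strand.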

How the data were processed

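RNA-seq counts of 2 wild-type BY4741 and 2 *sis2Δ* libraries were analysed. The authors trimmed reads with cutadapt 3.7, mapped them to R64 (sacCer3) with STAR 2.7.8a and counted them per gene with featureCounts 2.0.1 as reverse-stranded, and the counts were deposited without normalization. The gene annotation and the handling of multi-mapping reads are not given in the sources used here. A second deposited table holds the log2 fold changes and p-values of the authors' limma comparison and was not used.

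Groups came from the sample titles, where 1 *sis2Δ* title ends in a Greek letter read as B. The study calls the cultures independent. Genes reaching 0.5 CPM in 2 or more libraries were scaled by TMM and tested in R 4.3.3 with edgeR 4.0.16 (quasi-likelihood, Benjamini-Hochberg adjustment at 0.05 over all genes). The method was run on simulated counts with the same spread for every gene and changes larger than those of the 10 genes. That check therefore does not show how it performs on changes as small as theirs. Standard errors and intervals follow from edgeR's test. Alternatives were limma-voom (limma 3.58.1, the method of the study), DESeq2 1.42.0, a fit blocked on replicate letter, edgeR's legacy fit, scaling by RLE or by library size alone, 2 other filters (any count, or 10 counts in each library), each library left out, and for ratios 0.5 added to counts. Coordinates, symbols and coding lengths came from RefSeq R64, which holds 6008 of the 6692 identifiers. Intervals cover no bias from reads without molecular identifiers.

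The genes named were the 10 members, *SIS2*, called genes of the pathway lists, *PHO5*, *PHO84* and, for called members, the genes most like them. No member was called, so the last part named none. The members and lists were chosen with earlier results of these data known.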

Additional observations from a re-analysis of the deposited data

How the results depend on the processing

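Of the 10 genes' log2 fold changes, recomputed under 12 alternatives, 109 of 120 values kept their direction and their side of the threshold. Under limma-voom the value was -0.00078 for *PHO4* and -0.0019 for *VTC3*. With each library left out, the ranges were -0.13 to 0.19 for *PHO4*, -0.12 to 0.15 for *SPL2*, -0.11 to 0.14 for *VTC3*, -0.0403 to 0.18 for *VTC4* and 0.28 to 0.48 for *PHO81*, and between 0 and 1 of the 10 genes was called. The number of genes called over the whole table ranged from 198 (without wild-type B) over 208 (without *sis2Δ* A) and 331 (without wild-type A) to 1051 (without *sis2Δ* B), where the lone library of a strain is assumed to vary like the others. With the replicate letter as a block (replicate block), 788 genes were called in place of 362, and 1 of the 10, *PHO81*, with a log2 fold change of 0.37 (adjusted p = 0.0148 from edgeR's test). Libraries of the same letter deviated together with a correlation of 0.0719 across all tested genes and of 0.123 across genes of at least 10 CPM, a class that holds all 10 (genes are not independent replicates), and with 2 pairs the letters are taken only as names. In the 500-base window, chosen after seeing the data, 6 and 4 of the 10 promoters held CACGTG and CACGTT, against 3 and 2 in the shorter one. Adding 0.5 to counts hardly moved the ratios, and leaving out 1 of 2 libraries cannot move a ratio by more than its spread, so neither bears on their stability. In the unblocked fit to all libraries, no change under 0.37 on the log2 scale was called at these genes' levels.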
